A study of Mus musculus with 20 samples.

Results

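The PYHIN genes are a family of mouse genes that lie side by side on the distal long arm of chromosome 1, and 9 of them were examined here: Ifi203, Ifi204, Ifi207, Ifi208, Ifi209, Ifi211, Ifi213, Mndal and Aim2. They were chosen by gene name from the deposited count table, which lists 54532 genes, and each name matched 1 row. RNA-seq had been performed on neutrophils (PMNs) and on lungs of mice of 3 genotypes, all labelled C57BL/6. The neutrophils were leucocytes washed out of an air pouch under the dorsal skin after an injection of bacterial lipopolysaccharide (LPS), and came from 3 Ager-/-, 3 Ager AHA/AHA and 3 WT libraries. The lungs were perfused and frozen, the labels give them no LPS treatment, and they came from 4 Ager-/-, 4 Ager AHA/AHA and 3 WT libraries. Ager encodes RAGE, the receptor for advanced glycation end products. Ager-/- mice lack it and were received from another laboratory, whereas the knock-in Ager AHA/AHA mice keep the protein with a mutated heparan sulfate-binding site and were made with CRISPR-Cas9 in C57BL/6J eggs. The study describes the libraries as biological replicates from 3 to 4 mice per genotype, and the age and sex of these mice are not given in its methods.

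PYHIN proteins usually join a pyrin domain, which binds other pyrin domains, to a HIN domain, which binds DNA. AIM2 is the best understood of them: it recognises DNA in the cytosol and assembles an inflammasome with the adaptor ASC and caspase-1. Mouse p204, the product of Ifi204, senses cytosolic and viral DNA and acts through STING, and many genes of the family are induced by interferon in myeloid cells. Ifi208 and Ifi213 also carry the RefSeq synonyms Pydc3 and Pydc4, for pyrin domain containing.

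In mm10 coordinates the 9 genes span 592 kb of chromosome 1, from 173350879 to 173942672. Aim2 (ENSMUSG00000037860) starts the row on the plus strand and Ifi203 (ENSMUSG00000039997) ends it on the minus strand. Ifi208 (ENSMUSG00000066677, chr1:173673675-173698395, plus strand) lies between Ifi209 (ENSMUSG00000043263) and Ifi207 (ENSMUSG00000073490), and Ifi213 (ENSMUSG00000073491, chr1:173566283-173599274) lies on the minus strand beyond Ifi209. Ifi204 (ENSMUSG00000073489), Mndal (ENSMUSG00000090272) and Ifi211 (ENSMUSG00000026536) complete the set. All 9 are annotated as protein coding.

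Ifi208 was the only member called between genotypes in the main fits, and its promoter is nearly a copy of that of Ifi213. Both RefSeq windows (GRCm38.p6, 250 bases before to 50 bases after the start) are shown for that reason. They are reference sequence, and the sequence of these mice was not examined. The part of the promoters in the RNA values was not tested. Ifi208 is at chr1:173673415-173673714 on the plus strand and Ifi213 at chr1:173599223-173599522 on the minus strand, and capitals mark the aligned bases that differ:
Ifi208: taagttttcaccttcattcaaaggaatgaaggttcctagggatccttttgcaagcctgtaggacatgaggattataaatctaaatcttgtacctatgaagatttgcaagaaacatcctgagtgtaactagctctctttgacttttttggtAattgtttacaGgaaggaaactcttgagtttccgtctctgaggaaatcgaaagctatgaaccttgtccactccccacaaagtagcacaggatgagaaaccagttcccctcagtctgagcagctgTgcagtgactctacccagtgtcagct
Ifi213: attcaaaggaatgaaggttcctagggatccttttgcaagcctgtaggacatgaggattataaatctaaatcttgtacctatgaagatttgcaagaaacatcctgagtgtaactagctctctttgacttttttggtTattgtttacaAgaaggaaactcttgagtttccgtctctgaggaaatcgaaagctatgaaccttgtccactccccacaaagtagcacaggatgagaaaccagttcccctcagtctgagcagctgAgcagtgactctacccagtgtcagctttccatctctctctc
The windows overlap by 285 aligned bases, of which 3 differ, and are offset by 15 bases. The closest other pairs were Mndal with Ifi203, with 7 differing bases of 289 aligned, and Ifi207 with Ifi211, with 35 of 296.

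RefSeq windows were matched for 8 of the 9 members, all but Ifi204. The core of an interferon-stimulated response element (ISRE) was written as GAAA, any 2 bases and GAAA again and searched on both strands. It was found in the windows of 6 of these 8 genes, against 3.44% of 32851 RefSeq promoter windows of the same length. Genes and windows are unlike units here, since Mndal and Ifi203 had 2 windows each. The 6 genes include near-copies such as Ifi208 and Ifi213, so they are not independent matches. The core of a gamma-activated site, TTC, any 3 bases and GAA, was found in 0 of the 8, against 8.3% of all windows, so that no match of one overlapped the other. The matches are shown in capitals within 30 bases, since Ifi208 and Ifi213 share not only the motif but its flanks:
Ifi208: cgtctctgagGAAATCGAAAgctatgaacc
Ifi213: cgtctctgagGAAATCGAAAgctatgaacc
Ifi207: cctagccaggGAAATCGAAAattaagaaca
Ifi211: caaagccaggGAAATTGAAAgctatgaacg
Mndal: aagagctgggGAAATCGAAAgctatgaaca
Ifi203: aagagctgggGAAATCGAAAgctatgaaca
The motif begins 58 bases before the start of Ifi208 (window shown chr1:173673597-173673626, plus strand) and 73 bases before that of Ifi213 (chr1:173599326-173599355, minus strand). In the windows shown of the other genes it begins 35 to 41 bases before the start, as for Ifi207 (chr1:173741831-173741860), Ifi211 (chr1:173913064-173913093), Mndal (chr1:173880204-173880233) and Ifi203 (chr1:173942508-173942537), all on the minus strand. RefSeq lists another start for Mndal and for Ifi203, and of these windows that of Mndal held a match to the reverse complement 54 bases before the start (chr1:173879993-173880022, minus strand) and that of Ifi203 held none. Aim2 and Ifi209 held no match in their windows. A match describes these letters and does not show binding.

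The libraries held 16764589 to 24818703 counts, and levels are given as CPM, counts relative to the library size after TMM scaling. In lung, Ager RNA was 25.4 to 29.8 CPM in Ager-/- libraries, 1612 to 2910 CPM in Ager AHA/AHA libraries and 1918 to 2743 CPM in WT libraries. In neutrophils Ager had 101, 60 and 70 counts in Ager-/- libraries, 15, 44 and 29 counts in Ager AHA/AHA libraries and 37, 15 and 26 counts in WT libraries. These low counts were higher, not lower, in Ager-/- libraries (log2 fold change of 1.07 against WT, edgeR adjusted p = 0.0581), a difference that was not called. At such low counts this gene cannot check the knockout label in neutrophils, and Ager-/- neutrophils below are the libraries labelled so. Summed neutrophil markers were 23196 to 23841 CPM in Ager-/- cells, 23051 to 32746 CPM in Ager AHA/AHA cells and 28029 to 38759 CPM in WT cells, and summed T cell markers were 32.70 to 70.13, 26.50 to 43.65 and 15.02 to 18.14 CPM in the same order of groups. 1 library stood apart: replicate 4 of the Ager AHA/AHA lungs had 382 CPM of neutrophil markers and 1481 CPM of interferon-stimulated genes, against at most 180 and 613 CPM in the other Ager AHA/AHA lungs. In lung, alveolar epithelial and endothelial markers summed to 37749 to 49085 CPM over all 11 libraries.

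The first comparison places the family in the 2 tissues. All 9 members were higher in WT neutrophils than in WT lung, by edgeR's quasi-likelihood test with Benjamini-Hochberg adjustment over the 18180 genes tested in a joint fit of all libraries. Of all genes, 29.2% were called higher and 54.2% lower in WT neutrophils. The log2 fold changes had a median of 6.04, against -1.24 over all genes tested, and ran from 3.74 ± 0.252 (SE, adjusted p = 7.22e-13) for Ifi213 to 11.40 ± 0.424 (adjusted p = 5.3e-18) for Ifi204. Ifi211 followed with 9.93, Ifi207 with 8.39, Ifi209 with 7.09, Ifi208 with 6.04, Ifi203 with 4.87, Mndal with 4.68 and Aim2 with 3.96. With library totals in place of TMM all 9 stayed called higher, but the log2 fold changes ran from 1.22 for Ifi213 to 8.88 for Ifi204 and the median of all genes lay at -3.72. Relative to the median of all genes, Ifi213 lay 4.97 higher with TMM and 4.94 higher with library totals. The tissues differ in LPS treatment and in preparation as well as in cells, and these cannot be told apart. In bulk RNA, fewer cells of a type and less RNA per cell cannot be told apart either.

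Because the members differ in length, their levels were compared per kilobase of gene length (CPM per kb, scaled over both tissues). In WT neutrophils Ifi204 led with 1684 ± 253 CPM per kb (SD, n = 3), followed by Ifi211 with 674 ± 196, Ifi207 with 326 ± 80.0 and Ifi209 with 236 ± 57.2. Mndal had 105 ± 36.0, Ifi203 57.8 ± 18.4, Ifi208 45.6 ± 17.8, Aim2 10.9 ± 1.22 and Ifi213 9.285 ± 3.403 CPM per kb. The ranges of neighbours in this order overlapped for Ifi207 with Ifi209, for Ifi203 with Ifi208 and for Aim2 with Ifi213, and did not overlap elsewhere. Ifi204 alone gave 50.8% to 60.7% of the members' summed counts in the 9 neutrophil libraries, and 2.56% to 9.77% in the 11 lung libraries.

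**Figure D1:**
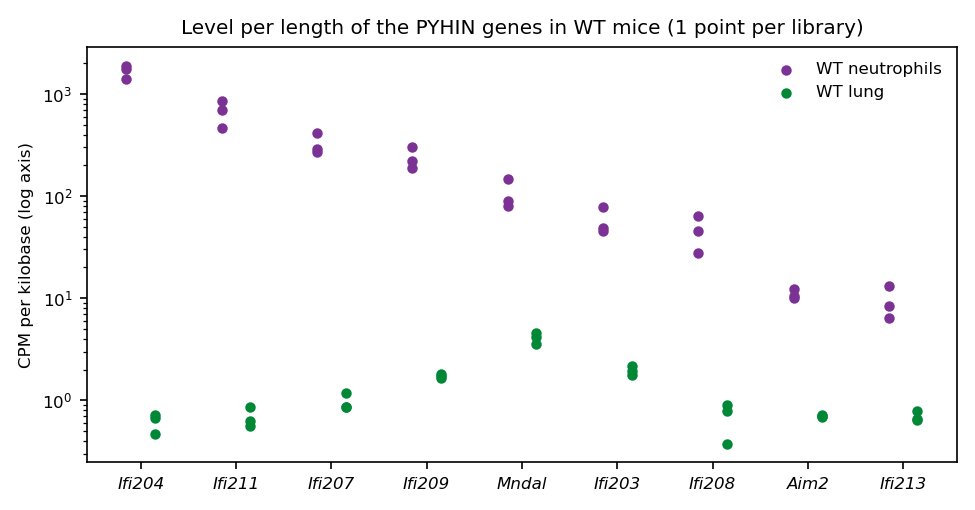
Level of each PYHIN gene per kilobase of gene length (CPM per kb, log axis) in WT neutrophils (left point of each pair of columns) and WT lung (right), 1 point per library. Neutrophils lie above lung for all 9 genes, and the order of the genes differs: Ifi204 is highest in neutrophils and Mndal in lung.

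The order in lung was another. In WT lung Mndal led with 4.12 ± 0.500 CPM per kb (SD, n = 3), followed by Ifi203 with 1.98 ± 0.208 and Ifi209 with 1.73 ± 0.0716, whose ranges overlapped. Ifi207 had 0.968 ± 0.173, and the remaining Aim2, Ifi213, Ifi208, Ifi211 and Ifi204 had means of 0.622 to 0.699 CPM per kb with overlapping ranges. In Ager-/- lung Ifi208 was last with 0.309 ± 0.104 CPM per kb (n = 4), below Ifi213 with no overlap, and in Ager-/- neutrophils it was last with 1.87 ± 1.20 CPM per kb (n = 3), below Aim2 with no overlap.

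The second comparison asked whether the family differed between neutrophils of Ager-/- and WT mice. 1 of 9 members, Ifi208, was called lower in Ager-/- than in WT neutrophils and 0 were called higher, while 4.01% of the 11632 genes tested were called lower and 6.65% higher. Ifi208 had 1.61, 6.56 and 3.45 CPM in Ager-/- neutrophils, 178, 130 and 152 CPM in Ager AHA/AHA neutrophils, and 141, 94.0 and 62.4 CPM in WT neutrophils. The Ager-/- libraries were therefore far below every library of both other genotypes. As raw counts these were 43, 151 and 67 in Ager-/-, 3001, 3042 and 3654 in Ager AHA/AHA libraries, and 2184, 1522 and 1124 in WT libraries, so that each low value rests on at least 43 counts. The log2 fold change against WT was -4.69 ± 0.496 (SE, edgeR adjusted p = 0.00111), or 25.7-fold lower, and Ifi208 stood at rank 41 of all genes by p. The difference was past the threshold in all 20 alternatives tried, which ranged from -5.32 to -4.20.

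**Figure D2:**
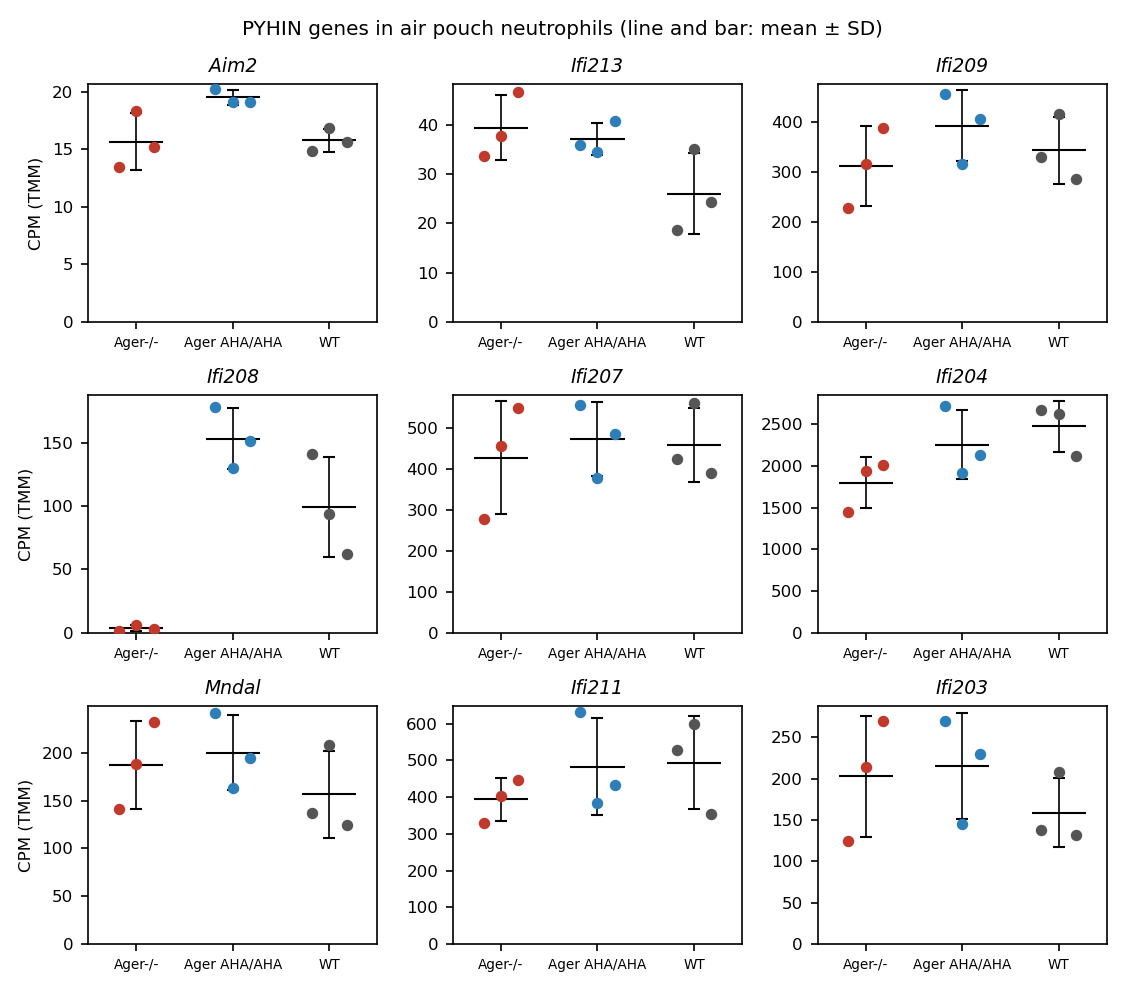
CPM of the 9 PYHIN genes in air pouch neutrophils, in their order along chromosome 1, for Ager-/- (left), Ager AHA/AHA (middle) and WT (right), with 1 point per library and the mean ± SD (n = 3 each). Ifi208 lies at 1.61 to 6.56 CPM in Ager-/- libraries and at 62.4 CPM or more in all others. The other members were not called between any of these groups.

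The other 8 members did not pass the test between Ager-/- and WT neutrophils, with log2 fold changes from -0.46 to 0.60. Ifi213 had 33.7, 37.7 and 46.7 CPM in Ager-/- neutrophils, against 18.6, 35.0 and 24.4 CPM in WT neutrophils. Its groups overlapped at the edge, and the difference of 0.60 ± 0.211 (SE) had an edgeR adjusted p of 0.0714. Ifi204, the most abundant member, had 1451, 1935 and 2015 CPM in Ager-/- neutrophils, against 2670, 2629 and 2122 CPM in WT neutrophils. The log2 fold change of -0.46 ± 0.194 had an adjusted p of 0.121 by the edgeR test. Ifi211, Ifi209, Ifi207 and Aim2 were at -0.33, -0.14, -0.10 and -0.01, and Mndal and Ifi203 at 0.26 and 0.35. The median over the 9 members was -0.10, against 0.01 over all genes tested.

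The calls for the smaller differences depend on the scaling. With library totals in place of TMM, the median of all genes moved to 0.40 in this comparison, the genes called were 2112 higher and 74 lower in place of 774 and 466, and Ifi203, Ifi213 and Mndal were called higher at 0.74, 0.98 and 0.65. Relative to the median gene these 3 lay 0.34, 0.58 and 0.25 higher, and Ifi208 lay at -4.66. The share of calls that were higher also moved with library totals between Ager AHA/AHA and WT neutrophils (71.5% in place of 49.4%), between Ager-/- and Ager AHA/AHA neutrophils (71.4% in place of 48.4%) and between WT neutrophils and WT lung (14.2% in place of 35%).

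Neutrophils of Ager AHA/AHA mice were compared with those of WT mice next. In Ager AHA/AHA against WT neutrophils 0 of 9 members were called in either direction, while 1.80% of genes were called higher and 1.84% lower (edgeR, with 2503 genes at an unadjusted p under 0.05). Ifi208 was at 0.63 ± 0.414 (SE, adjusted p = 0.41 by edgeR), and the ranges of 130 to 178 CPM in Ager AHA/AHA libraries and 62.4 to 141 CPM in WT libraries overlapped. Aim2 had 20.3, 19.1 and 19.1 CPM in Ager AHA/AHA neutrophils, against 14.8, 16.9 and 15.6 CPM in WT neutrophils. Its log2 fold change was 0.31, with an edgeR adjusted p of 0.318. The other members lay between -0.13 (Ifi204) and 0.51 (Ifi213, adjusted p = 0.171). The median over the members was 0.31, against 0.02 over all genes.

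Set directly against each other, Ager-/- and Ager AHA/AHA neutrophils differed in Ifi208 by -5.31 ± 0.508 (SE, edgeR adjusted p = 0.000649), rank 29 by p. It was the 1 member called lower, with 0 called higher, while 0.275% of genes were called lower and 0.258% higher. The other 8 members lay between -0.33 (Ifi209) and 0.09 (Ifi213) and did not pass the test. Aim2 had 13.4, 18.3 and 15.2 CPM in Ager-/- neutrophils and 20.3, 19.1 and 19.1 CPM in Ager AHA/AHA neutrophils. Its log2 fold change was -0.32, with an edgeR adjusted p of 0.573. These comparisons share libraries: the Ager-/- and the Ager AHA/AHA values are each set against the same WT libraries above.

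A ratio between neighbouring genes within a library does not depend on the scaling. Ifi208 had 0.0477, 0.174 and 0.0738 counts per count of Ifi213 in Ager-/- neutrophils, 4.98, 3.76 and 3.73 in Ager AHA/AHA neutrophils and 7.58, 2.69 and 2.55 in WT neutrophils. Every Ager-/- library was thus below every other library by this measure too. The ratio rests on the same Ifi208 counts and is not separate support. Ifi213 itself lay 0.60 higher in Ager-/- than in WT neutrophils without passing the test. As a share of the summed counts of the 9 members, Ifi208 gave 0.0618% to 0.184% in Ager-/- neutrophils, 3.49% to 3.72% in Ager AHA/AHA neutrophils and 1.78% to 3.21% in WT neutrophils. The summed level of the members without Ifi208 was 2601 to 3962 CPM in Ager-/- neutrophils, 3357 to 4926 CPM in Ager AHA/AHA neutrophils and 3448 to 4672 CPM in WT neutrophils, and these ranges overlap.

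**Figure D3:**
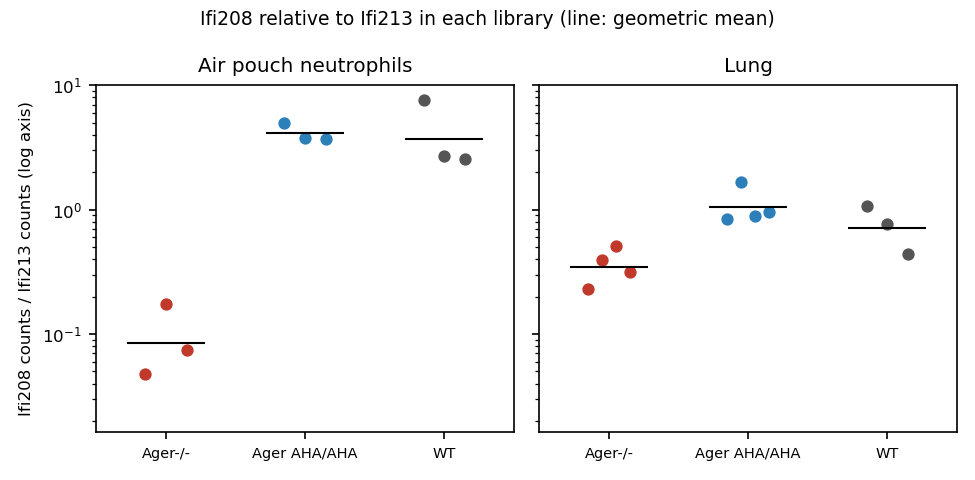
Counts of Ifi208 divided by counts of Ifi213 in each library (log axis) in neutrophils and lung, for Ager-/- (left), Ager AHA/AHA (middle) and WT (right), with the geometric mean as a line. In neutrophils the Ager-/- libraries lie at 0.0477 to 0.174 and all others at 2.55 or above, and in lung the Ager-/- and WT ranges of 0.232 to 0.512 and 0.439 to 1.08 overlap.

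Ifi208 was also examined in lung, where it is a low-level gene. The 4 Ager-/- lungs had 2.78, 2.76, 5.18 and 3.11 CPM (48, 54, 109 and 61 counts), the 4 Ager AHA/AHA lungs 9.92, 13.7, 14.8 and 13.5 CPM (214, 290, 281 and 328 counts), and the 3 WT lungs 10.1, 8.87 and 4.18 CPM (241, 169 and 87 counts). All Ager-/- lungs were below all Ager AHA/AHA lungs, whereas the highest Ager-/- lung was above the lowest WT lung. Against Ager AHA/AHA, Ifi208 was lower by a log2 fold change of -1.90 ± 0.273 (SE, edgeR adjusted p = 0.00135), rank 78 by p, and this was past the threshold in all 22 alternatives, at -2.16 to -0.71. It was the 1 member called lower, with 0 called higher, while 1.79% of the 17458 genes tested were called lower and 1.37% higher.

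Against WT lung the difference in Ifi208 was smaller, at -1.15 ± 0.290 (SE, edgeR adjusted p = 0.0461), and again 1 member was called lower and 0 higher, while 1.64% of genes were called lower and 1.45% higher. This call was lost in 12 of 22 alternatives, over which the adjusted p was 0.00373 to 0.388. It was lost without WT replicate 1 (0.243) or 2 (0.125), without Ager-/- replicate 1 (0.105), 2 (0.121) or 5 (0.132), and without Ager AHA/AHA replicate 3 (0.0599) or 4 (0.0515), each an edgeR adjusted p at log2 fold changes of -1.16 to -0.91. With limma on log2(FPKM + 1) the fold change was -0.31. Summed T cell markers were 51.6 to 68.9 CPM in Ager-/- lung, 74.6 to 83.5 CPM in Ager AHA/AHA lung and 84.7 to 93.0 CPM in WT lung, with 4 of 12 called lower in Ager-/- than in WT lung. Summed NK cell markers were 28.5 to 41.7, 47.9 to 80.8 and 67.3 to 87.0 CPM in the same order of groups, with 3 of 9 called lower. Their part in the Ifi208 difference was not tested.

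**Figure D4:**
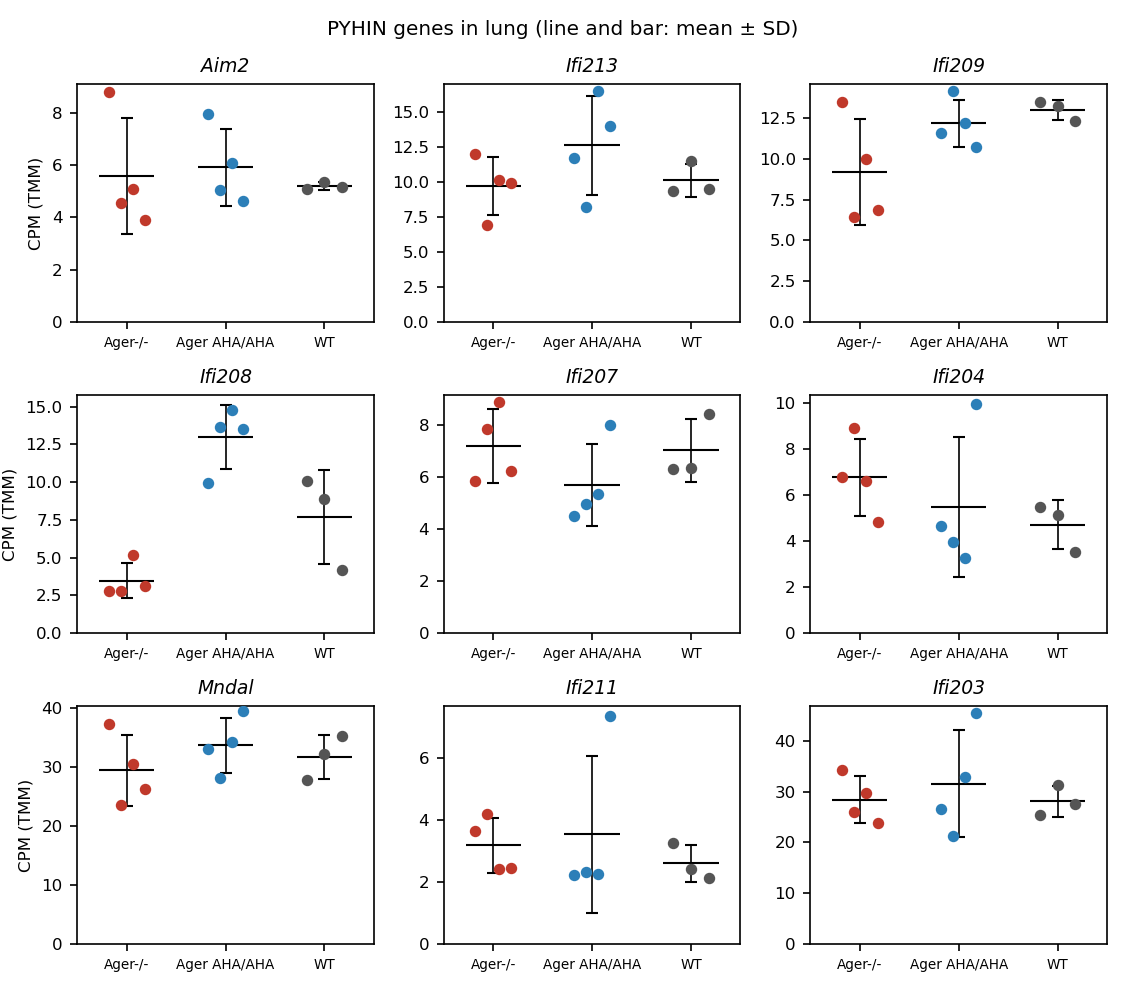
CPM of the 9 PYHIN genes in lung, in their order along chromosome 1, for Ager-/- (left, n = 4), Ager AHA/AHA (middle, n = 4) and WT (right, n = 3), with 1 point per library and the mean ± SD. Ifi208 lies at 2.76 to 5.18 CPM in Ager-/- lung, 9.92 to 14.8 CPM in Ager AHA/AHA lung and 4.18 to 10.1 CPM in WT lung, and 1 Ager AHA/AHA lung lies above the others for Ifi204, Ifi207, Ifi211 and Ifi203.

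The other 8 members were not called in Ager-/- against WT lung, with log2 fold changes from -0.51 (Ifi209) to 0.52 (Ifi204, adjusted p = 0.499). Ifi209 had 13.49, 6.44, 10.03 and 6.84 CPM in Ager-/- lung, against 13.53, 13.22 and 12.35 CPM in WT lung. Its groups overlapped through Ager-/- replicate 1, and its edgeR adjusted p was 0.241, or 0.0448 at -0.75 without that library. It was called in 1 of the 11 fits that left out a library, and in that fit Ifi208 was not called. Mndal, the most abundant member in lung per length, was at -0.11, and Ifi203 at 0.02. The median over the members was 0.02, against 0.01 over all genes tested.

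In Ager AHA/AHA against WT lung 0 of 9 members were called, while 0.0859% of genes were called higher and 0.0859% lower (edgeR, with 809 genes at an unadjusted p under 0.05). Ifi208 was at 0.75 ± 0.282 (SE, adjusted p = 0.947 by edgeR), with overlapping groups. The others lay between -0.30 (Ifi207) and 0.45 (Ifi211). Ifi211 had 2.23, 2.31, 2.27 and 7.34 CPM in Ager AHA/AHA lung, against 3.26, 2.41 and 2.11 CPM in WT lung. Without Ager AHA/AHA replicate 4, the library with high neutrophil markers and interferon-stimulated genes, its log2 fold change turned to -0.21. Between Ager-/- and Ager AHA/AHA lung the other 8 members lay between -0.41 (Ifi209) and 0.34 (Ifi207) and were not called.

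The difference between tissues in the effect of the genotype was tested in the joint fit. The Ager-/- effect on Ifi208 in neutrophils minus that in lung was -3.46 ± 0.587 on the log2 scale (SE, edgeR adjusted p = 0.00228). With the replicate number as a block this call was lost (-3.84, adjusted p = 0.0901). Ifi208 was the 1 member called, while 1.86% of the 18180 genes had a more negative and 7.26% a more positive effect in neutrophils past the threshold. The other 8 members lay between -0.91 (Ifi204, adjusted p = 0.159) and 0.72 (Ifi213, adjusted p = 0.163), and the median of all genes lay at 0.15 with TMM scaling and at -0.02 with RLE scaling, where 52.1% of all calls were more positive in place of 79.6%. For the Ager AHA/AHA effect 0 of 9 members were called, against 0.374% and 1.09% of genes in the same directions (edgeR, with 3029 genes at an unadjusted p under 0.05), and Ifi208 was at -0.03. RLE scaling moved the share of positive calls there to 55.9% in place of 74.4%.

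The genes around Ifi208 were examined next, by their position and not by their values. As given above, 6.65% of all genes were called higher and 4.01% lower in Ager-/- than in WT neutrophils. The count table holds 71 other rows that start between the members or within 1 Mb of the ends of the cluster, and 17 of them were tested in each tissue. In Ager-/- against WT neutrophils 2 of the 17, Slamf8 and the PYHIN gene Ifi214, were called higher and 1 lower. Slamf8, a surface receptor of the SLAM family on the centromeric side, was higher by 3.10 ± 0.422 (SE, adjusted p = 0.000322 by edgeR), and in Ager AHA/AHA neutrophils also higher than WT by 2.85 (adjusted p = 0.00207). Pigm, an enzyme of glycosylphosphatidylinositol anchor synthesis, was called lower in Ager AHA/AHA than in WT neutrophils at -0.71. There 1.80% of all genes were called higher and 1.84% lower. In lung 0 of the 17 were called in any comparison of genotypes, beside at most 1.79% of all genes in either direction.

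The row called lower was Gm18752, a pseudogene whose start lies 27.7 kb beyond that of Ifi208. It had 9, 7 and 9 counts in Ager-/- neutrophils, 44, 48 and 51 counts in Ager AHA/AHA neutrophils and 32, 23 and 11 counts in WT neutrophils. Every Ager-/- library was below every other library, although at low counts. The log2 fold change was -1.88 ± 0.451 against WT (SE, edgeR adjusted p = 0.0174) and -2.61 ± 0.433 against Ager AHA/AHA (adjusted p = 0.00347). In lung Gm18752 had 0 to 8 counts and was not tested. Of its 818 distinct annotated 100-base stretches none was found in Ifi208, and 159 were found in Ifi206.

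**Figure D5:**
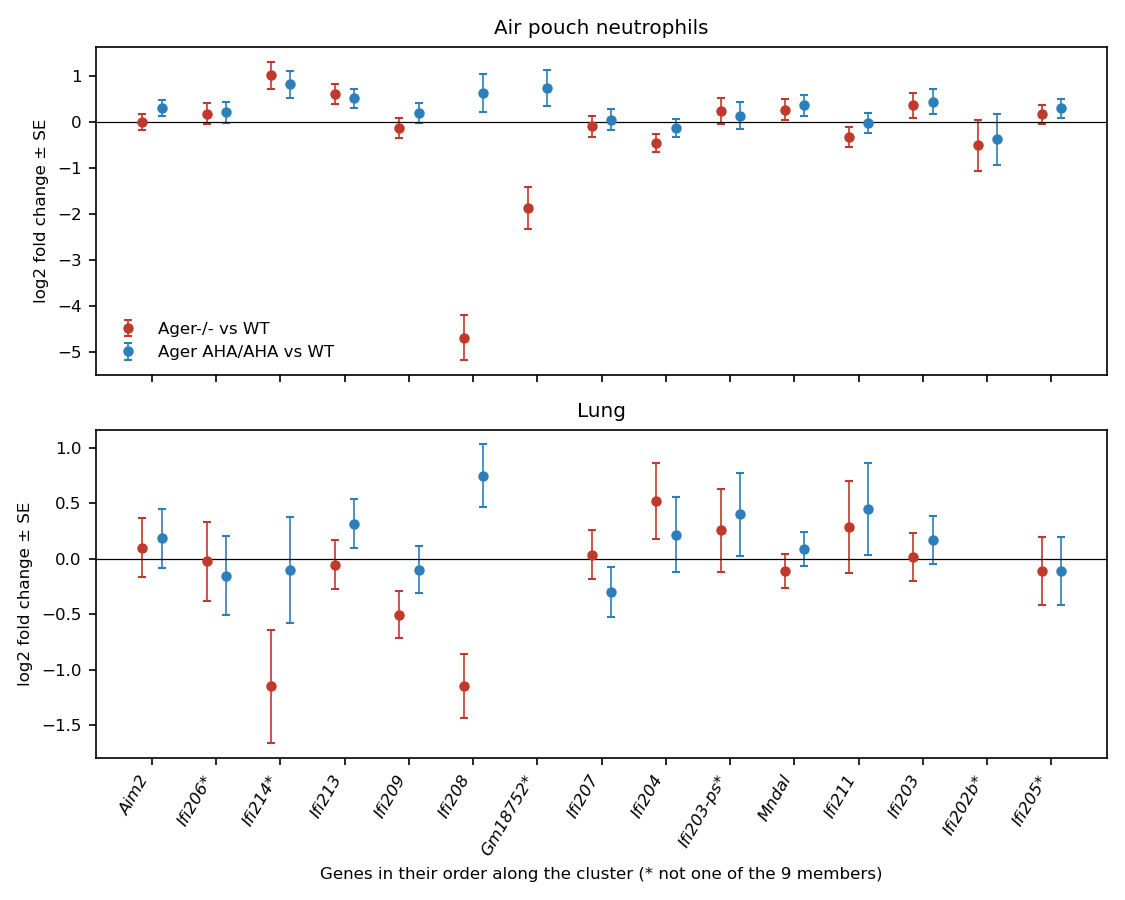
Log2 fold change ± SE against WT for the PYHIN genes and Gm18752 in their order along chromosome 1, in neutrophils (top) and lung (bottom), for Ager-/- (left point of each pair) and Ager AHA/AHA (right point). In neutrophils Ifi208 at -4.69 and Gm18752 at -1.88 stand below their neighbours in Ager-/-, and Ifi202b and Gm18752 have no point in lung because they were not tested there.

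5 further PYHIN genes of the cluster were found in the table: Ifi202b, Ifi203-ps, Ifi205, Ifi206 and Ifi214. In Ager-/- against WT neutrophils 1 of the 5 was called, Ifi214, beside 6.65% of all genes called higher and 4.01% lower. It was higher by 1.00 ± 0.294 (SE, edgeR adjusted p = 0.0386), at low counts of 131, 151 and 109 in Ager-/- and 25, 68 and 48 in WT libraries. Ifi214 had 4.90, 6.56 and 5.60 CPM in Ager-/- neutrophils, against 1.62, 4.20 and 2.66 CPM in WT neutrophils. It had 0.926, 0.613, 0.190 and 0.255 CPM in Ager-/- lung, against 1.17, 0.945 and 1.15 CPM in WT lung. The log2 fold change there was -1.15, with an edgeR adjusted p of 0.275. The difference between these effects was 2.24 ± 0.563 (SE, edgeR adjusted p = 0.0142). The other 4 were not called in any comparison of genotypes, where at most 6.65% of all genes were called in either direction. Ifi202b was too low to be tested in lung.

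Near-identical copies limit these values. In the annotation that the coordinates match, 5.92% of the 100-base stretches of Ifi208 transcripts also occur in other transcripts of the family, mostly in Ifi213 (169) and Ifi206 (163). The share was 56.9% for Ifi211 (628 stretches with Ifi205), 16.9% for Ifi209, all with Ifi214, 10.7% for Ifi204 and 0.263% to 5.89% for Mndal, Ifi213, Ifi203 and Ifi207, and Aim2 had 0. Ifi211 lies within the span of Mndal, and Mndal and Ifi203 share 37 exonic bases. The reads of the study were paired and longer than 100 bases, so these shares are not the shares of read pairs with several matches. The sources used here do not say how reads with several matches were counted. Among the 9 members the shares of stretches were highest for Ifi211, Ifi209 and Ifi204.

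Genes that work with the family were then counted from lists chosen by function. Of 15 inflammasome genes, 1 was called lower in Ager-/- than in WT neutrophils and 0 higher: Mefv, which encodes pyrin, at -0.58 ± 0.169 (SE, edgeR adjusted p = 0.0383). The median over that list was -0.45, against 0.01 over all genes and -0.46 over the neutrophil markers. Of 11 tested genes of cytosolic DNA sensing, 1 was called lower, Ikbke, a kinase that activates IRF3, at -0.61 (adjusted p = 0.0307). Beside the 4.01% of all genes called lower in that comparison, 1 call in either list is near the background. In Ager AHA/AHA against WT neutrophils and in both lung comparisons with WT, 0 members of these lists were called. Of all genes, 1.80% were called higher and 1.84% lower in Ager AHA/AHA neutrophils. In lung the shares were 1.45% and 1.64% for Ager-/- and 0.0859% each way for Ager AHA/AHA. These 0 counts are near the background too.

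Interferon signalling genes and interferon-stimulated genes were counted in the same way, beside 6.65% of all genes called higher and 4.01% lower. In Ager-/- against WT neutrophils 1 of 15 was called higher, Irf8, a myeloid transcription factor, at 0.85 (edgeR adjusted p = 0.0193), and 2 were lower, Ifnar1, a chain of the type I interferon receptor, at -0.58 (adjusted p = 0.0297) and Irf9, a subunit of ISGF3, at -0.56 (adjusted p = 0.0495). Irf8 was also called higher in Ager AHA/AHA than in WT neutrophils, at 0.80. Of 25 interferon-stimulated genes, 1 was called higher in Ager-/- neutrophils, the antiviral gene Mx1 at 0.89, and the list's median was -0.21. In Ager AHA/AHA neutrophils, where 1.80% of all genes were called higher and 1.84% lower, Mx1 was higher at 1.07, and Ifi44 was lower at -2.75. Ifi44l, called lower too, was at 0 CPM in all 3 Ager AHA/AHA neutrophil libraries, against 25.6 to 30.8 CPM in Ager-/- and 13.9 to 22.9 CPM in WT neutrophils. It was also called lower in Ager AHA/AHA than in WT lung (0 to 0.139 CPM, against 1.75 to 3.12 CPM, edgeR adjusted p = 0.000875). This was the only call of that list in the lung comparisons with WT, and 0 of 15 interferon signalling genes were called there. Of all genes, 1.45% were called higher and 1.64% lower in Ager-/- lung, and 0.0859% each way in Ager AHA/AHA lung.

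Markers of other cells moved with the genotype in neutrophils. In Ager-/- against WT neutrophils 6 of 13 tested macrophage markers, 5 of 10 markers of antigen-presenting cells, 7 of 12 T cell markers and 4 of 9 NK cell markers were called higher, and 1 of 13 neutrophil markers, Mmp9, was lower. Of all genes, 6.65% were called higher and 4.01% lower in that comparison. In Ager AHA/AHA against WT neutrophils the counts called higher were 3, 4, 2 and 1, beside 1.80% of all genes. C1qa, a macrophage complement gene, was 16.5 to 23.4 CPM in Ager-/- cells, 11.1 to 14.4 CPM in Ager AHA/AHA cells and 2.27 to 4.51 CPM in WT cells. Adgre1, which encodes F4/80, went the other way without passing the test, at -0.30 (median of 58.8 CPM in Ager-/- and 78.5 CPM in WT neutrophils), as did Cd68 at -0.29, Csf1r at -0.14, Cd163 at -0.46 and Fcgr1 at -0.60. Summed macrophage markers were 672 to 807, 633 to 650 and 502 to 707 CPM in the same order, and NK cell markers 197.9 to 327.4, 179.8 to 259.7 and 100.01 to 157.6 CPM. The B cell gene Ms4a1 was at 0 CPM in 8 of the 9 neutrophil libraries. Between Ager-/- and Ager AHA/AHA neutrophils 0 members of these lists were called. Only 0.258% of all genes were called higher and 0.275% lower there, so 0 is near the background. The list medians in that comparison ran from -0.16 for neutrophil markers to 0.57 for T cell markers. The part of these cell markers in the PYHIN values was not tested.

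Genes whose level was most like the summed level of the members were ranked within each tissue. Over the 9 neutrophil libraries the 5 genes outside the family with the highest Pearson correlation of log2 CPM to the members' sum were Sp140 (0.989), Dhx58 (0.987), Rbck1 (0.975), Vps54 (0.974) and Herc6 (0.974). Over the 11 lung libraries they were Gnao1 (0.876), Cpne5 (0.873), Xdh (0.857), Tubb4a (0.851) and Zyx (0.850). These are descriptions, since the libraries share genotypes and scaling, and Ifi204 dominates the sum in neutrophils.

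The members also differed in how much they varied within a group. The coefficient of variation of CPM was lowest for Aim2 in WT lung (2.66%, n = 3) and highest for Ifi211 in Ager AHA/AHA lung (71.7%, n = 4), where replicate 4 was high. Ifi208 varied by 64.7% in Ager-/-, 15.9% in Ager AHA/AHA and 40.1% in WT neutrophils, the last being the widest of the 9 members in WT neutrophils. Its 3 Ager-/- values, up to 6.56 CPM, were all below the lowest WT value of 62.4 CPM.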

How the data were processed

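RNA-seq libraries of neutrophils and lung were analysed as deposited. Per the labels and the methods of the study, bases were called with CASAVA, reads were trimmed with fastp and mapped with STAR on mm10, and the authors deposited raw featureCounts counts per gene, with the gene length in bases (an other value, not a measurement) and FPKM, which the authors made from the same counts. The FPKM fall into 2 sets of libraries with different scale constants, for which no reason was found. Tool versions, strand and the handling of multiply matching reads were likewise not found. The deposited tables of the authors' comparisons hold fold changes and p-values and were not used.

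Counts were fitted with edgeR 4.0.16 in R 4.3.3 (robust quasi-likelihood test, TMM scaling, filterByExpr), each tissue with its 3 genotypes, and all 20 libraries in a joint fit of 6 groups. The 9 members passed the filter in every fit. A gene was called at a Benjamini-Hochberg adjusted p under 0.05 over all genes tested, with no fold threshold. A log2 CPM for correlations used a prior count of 2. Depth was 16764589 to 24818703 counts per library. The fits were tested on simulated data. The members, the lists and the tests were chosen with earlier results of these data known. All members are named, and other genes are named where called, by list (up to 4 by p) or by position within 1 Mb. Ifi44l and Ms4a1 were given with their levels after these were seen.

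Alternatives were RLE scaling, library totals, DESeq2 1.42.0, other filters, a fit that is not robust, only the 2 groups compared, limma 3.58.1 on log2(FPKM + 1) and on log2(FPKM + 0.1), a replicate block, each library left out, and, added after seeing the data, a term for the FPKM set. Deviations of same-numbered Ager-/- and Ager AHA/AHA lungs had correlations of 0.143, 0.117 and 0.170. A differently numbered pair, Ager AHA/AHA replicate 3 with Ager-/- replicate 1, had 0.162. The numbers are not stated to mark a shared animal or day, so the main fits had no block. The replicate block, used only as an alternative, took the number as a term for all groups of a tissue. Promoter windows are RefSeq (GRCm38.p6), read with Python 3.11.15 and Biopython 1.88, and shared 100-base stretches are from GENCODE transcripts. Figures were drawn with matplotlib 3.10.9.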

Additional observations from a re-analysis of the deposited data

Results flagged for a closer look

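3 results stood out. In the main joint fit the Ager-/- effect on Ifi208 in neutrophils minus that in lung was -3.46 on the log2 scale (edgeR adjusted p = 0.00228). It rested on 3 Ager-/- and 3 WT neutrophil libraries and 4 Ager-/- and 3 WT lung libraries. With the replicate block the call was lost (-3.84, edgeR adjusted p = 0.0901). Scaled over both tissues, mean Ifi208 was 1.87 CPM per kb in Ager-/- and 45.6 in WT neutrophils. In lung it was 0.309 in Ager-/- and 0.689 in WT, so the effects start from very different WT levels. Ifi208 in Ager-/- lung replicate 4 was 5.18 CPM, far from the other 3 Ager-/- lungs at 2.76 to 3.11 CPM. Ifi211 in Ager AHA/AHA lung replicate 4 was 7.34 CPM, far from the other 3 at 2.23 to 2.31 CPM. Of all lungs, that library also had the highest summed neutrophil markers (382 CPM). Its sums of interferon-stimulated genes (1481 CPM) and antigen-presenting cell markers (3803 CPM) were the highest too. Outlying libraries were looked for in 18 sets of 4 (9 members in each mutant lung), and chance marks about 1 in 20 such sets.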

How the results depend on the processing

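Ifi208 was called lower in Ager-/- neutrophils against both other genotypes and in Ager-/- against Ager AHA/AHA lung under every alternative run, and all 9 members stayed higher in WT neutrophils than in WT lung. In Ager-/- against WT neutrophils, where 1 member was called, library totals gave 4 (Ifi203, Ifi213 and Mndal added), no filter gave 2 (Ifi213 added), and leaving out each library gave 1 to 2, the 2 without WT replicate 2. In Ager AHA/AHA against WT neutrophils leaving out each library gave 0 to 1 members called, the 1 being Ifi213 without WT replicate 2. In Ager-/- against WT lung, where 1 was called, 0 members were called with only the 2 groups compared (Ifi208 adjusted p = 0.0575), with limma on log2(FPKM + 1) (0.388) or log2(FPKM + 0.1) (0.202) and with the FPKM set as a term (0.0794), and 0 to 1 with each library left out, where without Ager-/- replicate 1 the 1 was Ifi209 and not Ifi208. In the test of the Ager-/- effect between tissues, 2 were called with library totals (Ifi213 added), 2 with no filter (Ifi204 added) and 1 to 2 with each library left out, the 2 without WT neutrophil replicate 2. The cause was not tested.

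With the replicate block, 0 members were called in Ager-/- against WT lung (Ifi208 at -1.32, edgeR adjusted p = 0.127) and 0 in the test between tissues (Ifi208 at -3.84, adjusted p = 0.0901); these groups share only numbers, with correlations of -0.02 and -0.08 for Ager-/- and WT lungs. The block changed no other member's call. In neutrophils the same-numbered libraries correlated at -0.18 to 0.15.

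Some small differences changed sign. With each library left out, Ifi204 in Ager AHA/AHA against WT neutrophils ran from -0.289 to 0.012 (the highest without Ager AHA/AHA replicate 4), Ifi213 in Ager-/- against Ager AHA/AHA neutrophils from -0.030 (without Ager-/- replicate 6) to 0.164, and Ifi211 in Ager AHA/AHA against WT lung from -0.21 (without Ager AHA/AHA replicate 4) to 0.64. Ifi213 in Ager-/- against Ager AHA/AHA neutrophils was also -0.013 with limma on log2(FPKM + 1) and -0.015 with log2(FPKM + 0.1). In the test of the Ager AHA/AHA effect between tissues, Ifi211 ran from -0.66 to 0.25 (without Ager AHA/AHA lung replicate 4) and Ifi208 from -0.29 to 0.28, positive without WT neutrophil replicate 1, Ager AHA/AHA neutrophil replicate 4, WT lung replicate 3 or Ager AHA/AHA lung replicate 3. The other 46 differences of members gave 1028 values under the alternatives, of which 70 changed sign and 0 became called. Counts of 48 to 109 limit Ifi208 in Ager-/- lung.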
